A study of Homo sapiens with 6 samples.

Results

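The matrix metalloproteinase genes MMP10, MMP1 and MMP3 lie next to each other on human chromosome 11. Every peak of 3 deposited peak lists in a window of 470 kb around them was taken, from 102380000 to 102850000 in hg19. The window held 21 peaks of 22804 in all: 1 YAP peak of 3867, 16 TEAD peaks of 9321 and 4 YAP5SA peaks of 9616. The members were chosen by their position and by the peaks listed there, in particular a region with a peak of each list, so the presence of those peaks is a description and no test was made of it. The lists carry no gene names, and the genes were placed by positions given to the nearest kb: MMP10 at 102641 to 102651 kb, MMP1 at 102661 to 102669 kb and MMP3 at 102707 to 102714 kb.

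The lists come from chromatin immunoprecipitation followed by sequencing (ChIP-seq) in CClp1, an established human cell line derived from a bile duct cancer, with 1 library per group. One library was made with a YAP antibody. The series' design text describes 3 YAP runs made with 2 antibodies, and which of them gave this YAP list was not established. Another library was made with a TEAD antibody, which the series' design text gives as TEAD1. The remaining list came from Flag-Bio-YAP5SA, a tagged YAP in which serines that LATS kinases phosphorylate are replaced by alanine, called YAP5SA here. The labels name no treatment or genotype for any group, and the cell type cannot be checked from peak lists. No peak list of the IgG, input or BirA libraries (BirA is the control of the tagged protein in the design text) was analysed, hence no control background can be set beside the values, and there is no replicate error. Read depth cannot be read from a peak list and is unknown. Transcript levels were not part of these files.

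Matrix metalloproteinases are secreted, zinc-dependent proteases that cut proteins of the extracellular matrix. MMP1 is the interstitial collagenase, which cuts fibrillar collagen, while MMP3 and MMP10 are the stromelysins, which cut proteoglycans and other matrix proteins and can activate other proenzymes of the family. YAP is a co-activator without a DNA-binding domain of its own and reaches chromatin mainly through TEAD factors, often at enhancers far from the gene's start and often where AP-1 (Fos and Jun proteins) also binds. AP-1 is a classical regulator of the metalloproteinase genes of this cluster. In the RefSeq gene table of GRCh38.p14 the protein-coding genes follow each other in the order MMP7, MMP20, MMP27, MMP8, MMP10, MMP1, MMP3, MMP12 and MMP13. That table belongs to another build than the peaks and was used for this order alone. Genes of the cluster are transcribed towards lower coordinates, as the RefSeq promoter table gives it for MMP10, so the upper end of each interval is taken as its start.

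The lists met at a single place in the window, from 102632229 to 102632933. The TEAD peak there spanned 705 bp and had a score of 2734.27. The score is the peak caller's value as the authors deposited it, from 50 to 3100 in each list, and serves here to rank peaks within 1 list. This TEAD peak ranked 15 of 9321. The YAP5SA peak ran from 102632329 to 102632820 with a score of 317.79, rank 26 of 9616. The YAP peak ran from 102632242 to 102632682 with a score of 97.74, rank 217 of 3867. TEAD and YAP5SA thus had the region near the very top of their lists, with 99.8% and 99.7% of their peaks scoring lower, and YAP had it lower down, with 94.4% of its peaks scoring lower.

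Both the YAP and the YAP5SA peak lay wholly inside the TEAD peak. A stretch of 354 bp, from 102632329 to 102632682, was common to all 3 peaks. It made up 80.3% of the YAP peak, 72% of the YAP5SA peak and 50.2% of the TEAD peak. The YAP5SA centre lay 6.5 bp from the TEAD centre, and the YAP centre lay 119 bp below it. No base of this region is printed, since a genome sequence of the build of the files was not used here.

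**Figure D1:**
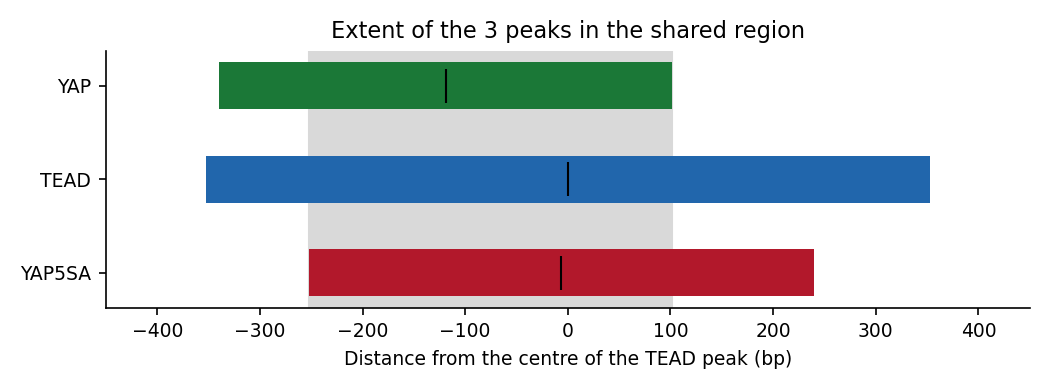
Extent of the YAP, TEAD and YAP5SA peaks of the shared region as bars, in bp from the centre of the TEAD peak, with each peak's centre as a black tick and the stretch common to all 3 in grey. The TEAD bar contains both others, and the common stretch is 354 bp long.

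Seen from the genes, the centre of the shared region lay 8.4 kb below the lower end of MMP10, that is past its 3′ end. Its distance to the start of the gene was 18.4 kb for MMP10, 36.4 kb for MMP1 and 81.4 kb for MMP3. These distances are only as precise as the gene positions, which were given in whole kb. No YAP peak and no YAP5SA peak overlapped another TEAD peak of the window. The single YAP peak of the window thus met both other lists, as 8.28% of YAP peaks did for TEAD and 2.64% for YAP5SA, while 1.15% of YAP5SA peaks met YAP.

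**Figure D2:**
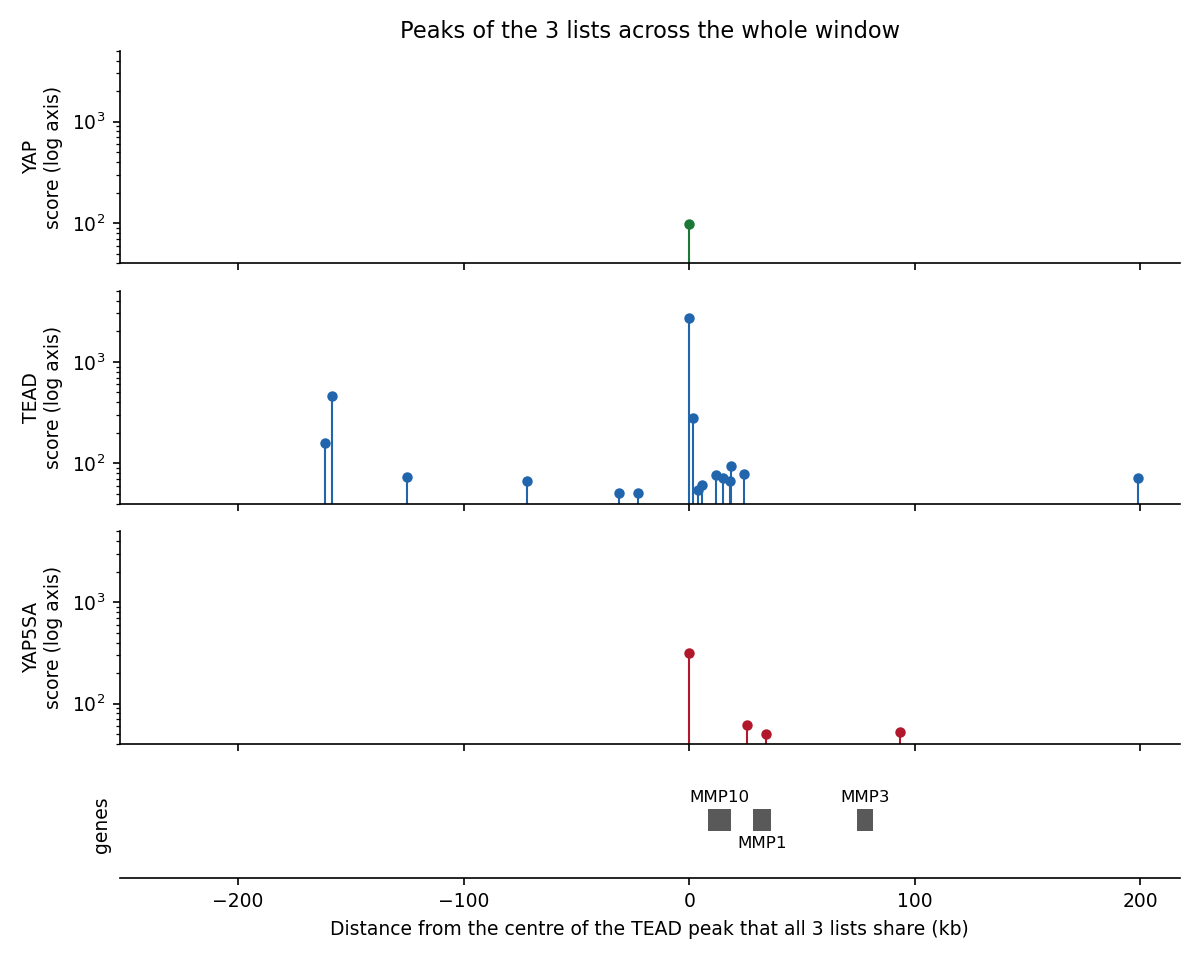
Score of every peak in the window (vertical axes, log scale, 1 panel for each list) against the distance of its centre from the centre of the shared TEAD peak in kb, with MMP10, MMP1 and MMP3 as bars below. The YAP panel has 1 peak, at the place of the highest TEAD and YAP5SA peaks.

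Listed TEAD peaks did not stop at the shared region but went on as a chain up to and past MMP10. Of the 16 TEAD peaks, 9 formed 1 cluster from 102632229 to 102657083, a span of 24.9 kb, where a cluster is 3 or more peaks each no more than 12500 bp from the next. Over the whole TEAD list 29.5% of peaks lay in such clusters. At this distance the shared peak was the lower edge of the chain, and the other 8 members all lay above it, on the side of MMP10. With a joining distance of 25 kb the cluster reached below the shared peak, to 102601182. Gaps within the chain ran from 692 bp to 5791 bp. The median size of the 559 TEAD clusters was 4 peaks, and 40 of them (7.16%) had at least 9.

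The second highest score of the chain was that of its nearest neighbour, from 102634193 to 102634612. This TEAD peak was 420 bp wide and had a score of 280.93, rank 978 of 9321. It began 1259 bp above the shared peak, and neither YAP nor YAP5SA had a peak on it. The peaks from 102636281 to 102636445 and from 102638197 to 102638385 came next, with scores of 55.16 and 61. Both lay in the lower part of the TEAD list, where 11.6% and 26.1% of peaks scored lower, and both were still below MMP10.

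MMP10 itself held 3 TEAD peaks, whereas MMP1 and MMP3 held none. The first of these, from 102644177 to 102644323, had a score of 76.35 against a median of 76.17 over the TEAD list. The next, from 102647284 to 102647451, scored 71.47. The last, from 102650347 to 102650482, scored 67.26. All 3 were narrow, at 147 bp, 168 bp and 136 bp, where the TEAD median was 214 bp. They were thus peaks of middling score and less than the usual width.

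A further TEAD peak, from 102651175 to 102651389, lay at the start of MMP10. Its centre was 0.3 kb above the upper end of the gene's interval, a distance smaller than the rounding of that position. Its score of 95.06 was exceeded in the chain only by those of the shared peak and its neighbour, and 62.5% of TEAD peaks scored lower. YAP had its nearest peak 18492 bp away and YAP5SA 6536 bp away, so TEAD alone of the 3 lists had a peak at this start. The last peak of the chain, from 102656817 to 102657083, scored 78.9 and lay in the interval between MMP10 and MMP1, 12.1 kb below the start of MMP1.

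The promoter of MMP10 is shown because a TEAD peak lay at that start. The sequence is the 250 bases before the RefSeq start, on the minus strand of chr11:102780629-102780878 in GRCh38.p14, which are not hg19 coordinates. Whether these bases, or a motif match in them, lie under the TEAD peak was not established. Its capitals mark the match to TGANTCA, a loose pattern of the AP-1 motif in which N stands for any base.
MMP10 promoter: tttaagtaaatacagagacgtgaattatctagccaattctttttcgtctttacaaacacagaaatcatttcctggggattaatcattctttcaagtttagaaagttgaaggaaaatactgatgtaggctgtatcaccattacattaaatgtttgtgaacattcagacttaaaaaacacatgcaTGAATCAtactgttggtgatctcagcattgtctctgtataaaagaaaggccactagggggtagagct

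Both strands were searched for TGANTCA and for GGAATG, the core of the motif that TEAD factors bind. TGANTCA occurred 1 time, as TGAATCA, with its first base 67 bases before the start. GGAATG did not occur in these 250 bases. Of 35116 RefSeq promoters of the same length, 6.57% held TGANTCA and 11.9% held GGAATG. Such a match is a description of the letters. Of the 9 metalloproteinase genes of the cluster 5 were matched in the promoter table: MMP7, MMP8, MMP10, MMP20 and MMP27. TGANTCA occurred in 3 of these 5, as TGAATCA in MMP10 and MMP20 and as TGAGTCA in MMP7, and GGAATG in 0.

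**Figure D3:**
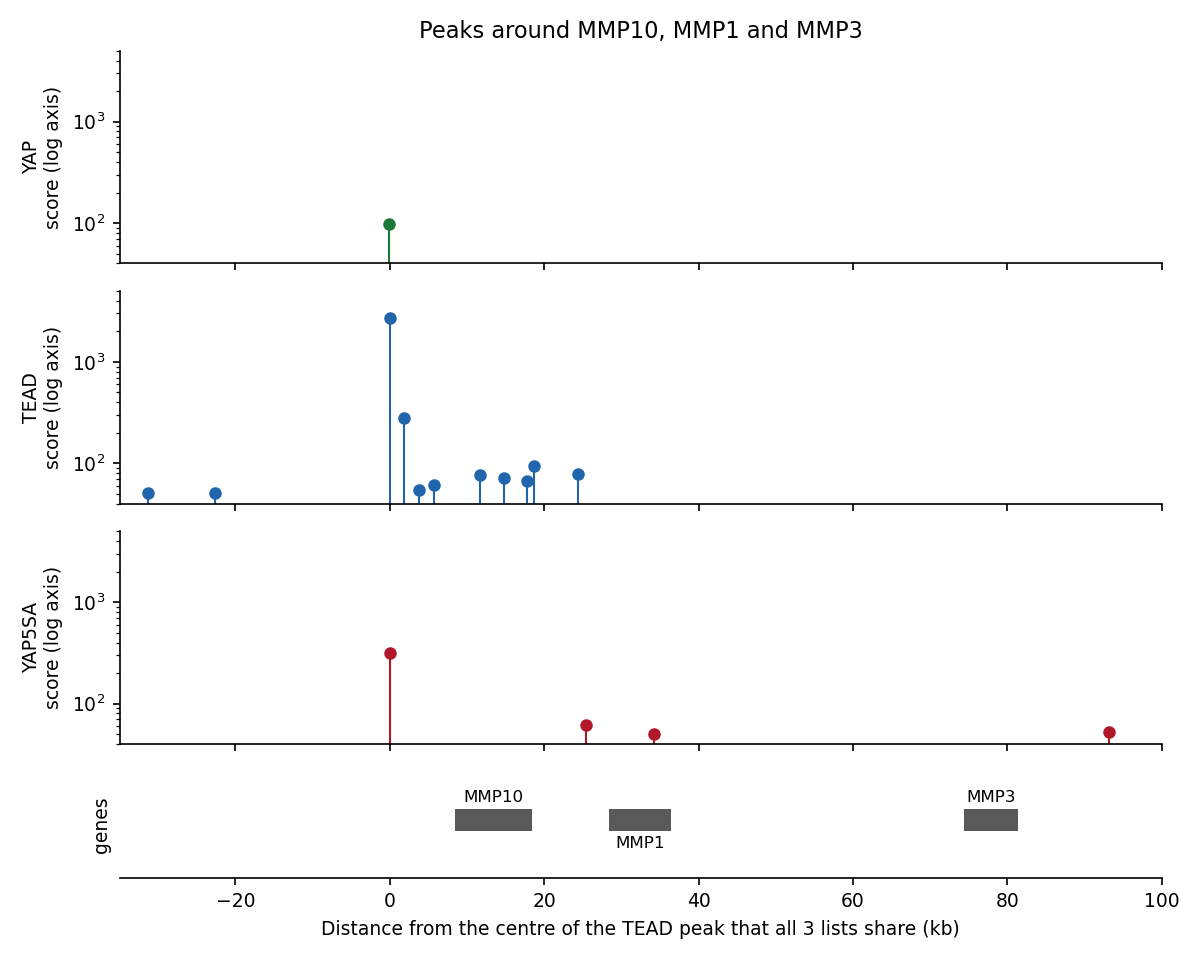
The part of the window around the 3 genes: score of each peak (vertical axes, log scale, 1 panel for each list) against distance from the centre of the shared TEAD peak in kb, with the gene intervals as bars. TEAD peaks run from the shared region through MMP10, and the YAP5SA peaks at 25.4 kb, 34.2 kb and 93.2 kb have no TEAD peak on them.

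MMP1 and MMP3 lay in a stretch without any TEAD peak. After the last peak of the chain the next TEAD peak began 174.3 kb further up, from 102831420 to 102831583, with a score of 72.35, and this stretch held both genes. A gap of this length is common: the median gap between neighbouring TEAD peaks on the main chromosomes was 63.4 kb, and 33.9% of 9205 gaps were at least as long. The TEAD peak nearest to the start of MMP3 was the last of the chain, 57.1 kb below it.

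YAP5SA had 3 more peaks in the window, and none of them overlapped a TEAD peak, as is the case for most YAP5SA peaks. Over the whole YAP5SA list 5.44% of peaks overlapped a TEAD peak; in the window 1 of 4 did, the peak of the shared region that the choice of the window had already used. The peak from 102657926 to 102658113, between MMP10 and MMP1, had a score of 60.84 and began 842 bp past the end of the last TEAD peak of the chain. Such a place beside a TEAD peak, within 1 kb but not on it, was listed for 0.728% of YAP5SA peaks. The peak from 102666706 to 102666854 lay inside MMP1, 2.2 kb below its start, with a score of 50.49 and 9622 bp from the nearest TEAD peak. Within 10 kb of a TEAD peak but not on it lay 4.89% of YAP5SA peaks, those within 1 kb included. The peak from 102725720 to 102725856 lay 11.8 kb above the start of MMP3, with a score of 52.17 and 68636 bp from the nearest TEAD peak. The last 2 had scores close to 50, the lowest listed, with 3.7% and 20.4% of YAP5SA peaks scoring lower. The peak between MMP10 and MMP1 stood higher, with 67.2% scoring lower. MMP10, MMP1 and MMP3 held no YAP peak, and MMP10 and MMP3 held no YAP5SA peak.

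The 6 other TEAD peaks below the chain lay far from the 3 genes. A pair from 102470817 to 102471082 and from 102473693 to 102474258 had scores of 157.58 and 459.97, and the latter was the second highest TEAD score in the window, rank 514 of 9321. It lay 158.6 kb below the shared region and had its nearest YAP5SA peak 158070 bp and its nearest YAP peak 157983 bp away, both those of the shared region. The others scored 73.52, 66.21, 50.83 and 51.22. In all, 4 of the 16 TEAD peaks had a score of at least 100, against 35.0% of the TEAD list, and 7 of 16 reached the list's median. The median TEAD score in the window was 72.935, close to the 76.17 of the whole TEAD list.

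In the window 1 of 16 TEAD peaks overlapped a YAP peak, where 4.48% of the TEAD list did. The same peak was the 1 that overlapped YAP5SA, where 5.49% did. Over the whole list 0.826% of TEAD peaks met both. These shares of the list are the background for a count that the choice of the window had fixed at 1 or more.

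Set against all windows of the same length, TEAD peaks were dense here by number and YAP peaks were not. The main chromosomes were divided into 6414 windows of 470 kb, laid so that the present window was 1 of them, and peaks were counted by their centres. At least 16 TEAD peaks lay in 66 windows (1.03%), the present window included. The present window set this count of 16, and no test was made of the share. All windows were counted, so the exact Clopper-Pearson 95% interval, 0.797 to 1.31, measures no sampling error. This counting interval serves only as a range for judging alternative values of the share. At least 4 YAP5SA peaks lay in 8.43% of windows and at least 1 YAP peak in 39.6%. Most windows were nearly empty, with a mean of 1.44 TEAD peaks, so among the 3063 windows with any TEAD peak the share was 2.15%. The present window was chosen for a region that all lists hold, and 69 windows held such a region. At least 16 TEAD peaks lay in 13 of these 69, the present window included. The median of the 69 was 5 TEAD peaks, against 0 over all windows. Among windows with such a region this density was thus much less rare than among all windows.

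Compared with the other regions that all 3 lists hold, of which there were 73, the region below MMP10 stood in the upper part for score and was ordinary in shape. Its TEAD score was exceeded in 11 regions, where the median was 1055. Its YAP5SA score was exceeded in 9, with a median of 126.9, and its YAP score in 23, with a median of 74.26. The width of its TEAD peak, 705 bp, was close to the median of 664 bp, and the range of its 3 peak centres, 119 bp, equalled the median. Some of these regions lie in what may be repeat sequence, but no repeat annotation was used. A stricter set drops contigs, peaks wider than 1 kb and any peak less than 2 Mb from a gap of more than 2.5 Mb in which no list has a peak. It left 57 regions. Among them the TEAD score of the region below MMP10 was exceeded in 6, its YAP5SA score in 4 and its YAP score in 14. The dropped regions with a higher TEAD score all had TEAD peaks wider than 1 kb, from 1031 bp to 2906 bp. The limit on width, and not evidence of repeats, thus removed them from this ranking.

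**Figure D4:**
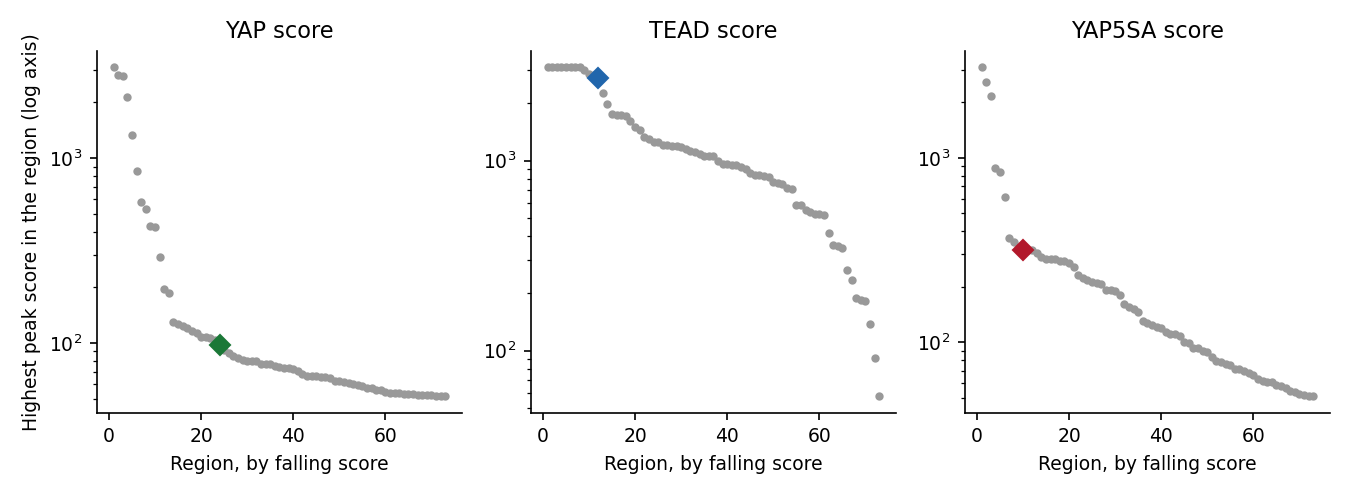
Highest peak score of each of the 73 regions that all 3 lists hold (vertical axes, log scale), ordered by falling score separately for YAP, TEAD and YAP5SA, with the region below MMP10 as a coloured diamond. Its place is 24 in the YAP panel, 12 in the TEAD panel and 10 in the YAP5SA panel.

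The region below MMP10 had more TEAD neighbours than most of these. Within 25 kb of the centre of the shared TEAD peak lay 9 other TEAD peaks, 8 above and 1 below. The median over the 73 regions was 1, and 25 regions had none. At least 9 neighbours were found in 5 of the 73 regions, this region included. Without repeat-like sequence this was 1 of 57, which is the region below MMP10. Of the regions lost in that setting, that on chromosome 17 at 63738401 had 9 neighbours. Those on chromosome 19 at 48428225 and 50624197 had 14 and 17. Their TEAD peaks, 1232 bp, 1072 bp and 1387 bp wide, exceed the setting's limit of 1 kb on width. That setting also removes neighbours: a region on chromosome 17, from 46321339 to 46322234, had 9 neighbours over all peaks and 8 in it. Among the 100 TEAD peaks with the highest scores the median was 2 neighbours, and 7, the shared peak included, had at least 9. In the whole TEAD list 5.56% of peaks had as many. Without repeat-like sequence these values were 3 of 100 and 1.51%. No test was made of these counts, because the same peaks had led to the choice of the window.

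**Figure D5:**
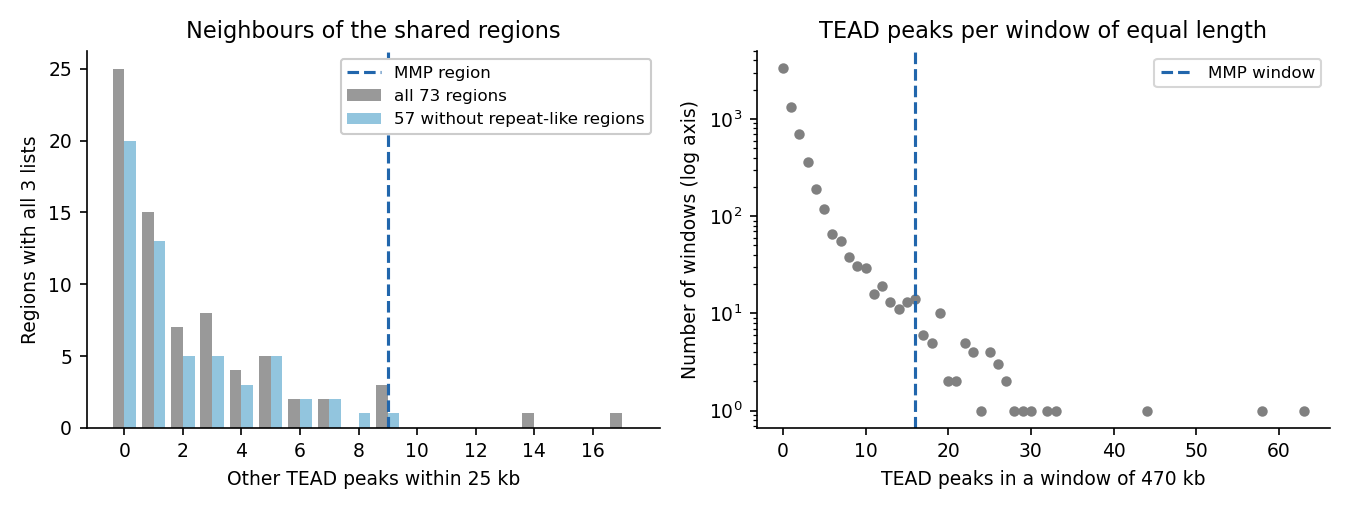
Left, number of other TEAD peaks within 25 kb of each region that all 3 lists hold (bars, number of regions, all 73 and the 57 without repeat-like sequence). Right, number of windows of 470 kb (log scale) by their count of TEAD peaks; dashed lines mark the region below MMP10, with 9 neighbours, and its window, with 16 peaks.

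The limits of the window cut through no peak. The TEAD peaks next to it lay 38 kb below its lower edge, with a score of 54.05, and 17 kb above its upper edge, with a score of 85.54. The nearest peak inside its upper edge, at 18.4 kb, scored 72.35. The nearest YAP peaks outside scored 56.58, at 170.3 kb below, and 51.32, at 39.2 kb above. For YAP5SA they scored 66.89, at 118.9 kb below, and 50.95, at 657.3 kb above.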

How the data were processed

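The data are 3 ChIP-seq peak lists from CClp1 cells (YAP, TEAD, YAP5SA), each from 1 library. Per the labels' protocols, cells were fixed for 10 min in 1% formaldehyde, glycine at 0.125 M stopped the fixation, and chromatin was sonicated to about 250 bp. The aligner was Bowtie2 and the build hg19, per the submitters' processing notes. The authors deposited a score for each peak. Its range and peak names that begin with MACS fit 10 times the negative log10 of a p-value, an assumption that the ranks used here do not need. Caller version, threshold and control library: not given in the sources used here. Lists called against a common control can share peaks for that reason, and this was not tested.

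Starts were read as counted from 0 and are printed counted from 1. Peaks met when they overlapped by at least 1 bp. Cluster distances are gaps between peak ends. The peaks named were all YAP and YAP5SA peaks of the window, TEAD peaks within 10 kb of the 3 genes or meeting another list, and the remaining TEAD peaks, which were fewer than the rule's limit of 10. Members and lists were chosen with earlier results of these data known. The overlap code was tested on simulated lists, where 200 of 200 planted overlaps were found in each of 6 pairs of lists and 150 of 150 planted members of TEAD clusters; 12 of 12 overlap counts equalled those of bedtools 2.31.1. Alternatives tried were other overlap rules, score minimums, joining distances and background windows. Software was matplotlib 3.10.9, pandas 2.3.3, scipy 1.17.1 and numpy 2.4.6 under Python 3.11.15.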

Additional observations from a re-analysis of the deposited data

How the results depend on the processing

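Of 34 alternative values for 11 results, 19 stayed within 1.5 times the count or within the counting interval. The overlap rules changed no count: 1 TEAD peak met YAP and 1 met YAP5SA under each of them. With a score of at least 100 there were 0 YAP, 4 TEAD and 1 YAP5SA peaks and 0 regions with all 3 lists, since the YAP peak scored 97.74. In the higher-scoring 50% of each list there were 7 TEAD and 2 YAP5SA peaks, and 5 TEAD peaks in a cluster. With a joining distance of 5 kb 8 TEAD peaks of the window were in clusters, and with 25 kb 11 were. Leaving out windows without a TEAD peak raised the share of equally dense windows from 1.03% to 2.15%, by the smaller number of windows. The share of peaks scoring below the shared region was 94.36% for YAP, and 96.86% without repeat-like regions, 88.95% on the same chromosome and 68% among regions with all 3 lists. For TEAD it was 99.84%, then 99.91%, 99.7% and 85.88%, and for YAP5SA 99.73% and 86.9% among regions with all 3 lists. The cause of these moves was not tested beyond the change of the peaks ranked against. No paired analysis was possible because a single list per antibody or tag was analysed, and no replicate could be left out. Depth is unknown, so a missing YAP or YAP5SA peak at a TEAD peak does not show that the protein was absent there.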

Other observations

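Some windows of 470 kb at least as dense in TEAD peaks also held a region of all 3 lists. The metalloproteinase window set their minimum of 16 TEAD peaks, so its place at the lower end of them was fixed beforehand. Without repeat-like regions there were 10 such windows among the 55 with a region of all 3 lists. Of all 6330 windows in that setting, 52 (0.821%) held at least 16 TEAD peaks. The densest, on chromosome 1 from 98150001 to 98620000, held 28 TEAD, 6 YAP and 3 YAP5SA peaks. A window on chromosome 17 from 45980001 to 46450000 held 21 TEAD peaks and 8 YAP5SA peaks, and in it lay a region of all 3 lists from 46321339 to 46322234 whose TEAD cluster also had 9 peaks without repeat-like regions. Over all peaks that cluster had 10. There the TEAD score was 2272.17, the YAP5SA score 100.55 and the YAP score 74.86, each below the value of its own list at the region below MMP10. Over all peaks that region had 4 TEAD neighbours above and 5 below within 25 kb, 9 in all, as many as the region below MMP10, which had 8 above and 1 below. The setting without repeat-like regions left it 3 above and 5 below. These windows were picked after their values were seen, and no test was made.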
